A study of Mus musculus with 62 samples.

Results

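The genes described here encode 7 parts of the electrical machinery of the mouse heart: the sodium channel pore gene Scn4a, the sodium channel beta subunit genes Scn3b and Scn4b, the connexin genes Gja1 and Gja5, and the pacemaker channel genes Hcn2 and Hcn4. These 7 were taken by symbol from the 47643 gene symbols of the deposited table, and all 7 were present. They were chosen by symbol with earlier TPM results of these same hearts in view, and no threshold is recorded for the choice. The levels and differences of the 7 genes are therefore given as a description, without p-values. RNA came from hearts of female mice. The labels give their age as 2 months in all 12 groups, whatever the week of collection. Mice of the CAC arm had been injected with cachectic melanoma cells, mice of the NCAC arm with non-cachectic melanoma cells, and mice of the Con arm were mock injected. Hearts were taken 2, 4, 6 and 8 weeks later. Each of the 12 groups of arm and week held 5 libraries, except CAC at week 8 with 7 and Con at week 4 with 4 after the library of replicate 2 was left out, which made 61 libraries of 62. The labels call the libraries biological replicates. They give the strain as C57BL6/J, whereas the design text names nude mice. The extraction protocol in the labels also speaks of an LLC injection and a time point of 3 weeks, which match no sample here. CAC and NCAC tumours came from different melanoma cells, so the wasting state of the host and the tumour cells used cannot be told apart in this design.

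The upstroke of the ventricular action potential is carried by voltage-gated sodium channels, which consist of a pore-forming alpha subunit and of beta subunits that set gating and surface level. Current passes between cardiomyocytes through gap junctions built of connexins, with connexin 43 (Gja1) in working myocardium and connexin 40 (Gja5) in atria, in the fast conduction system and in arterial endothelium. HCN channels open on hyperpolarisation and carry the pacemaker current. HCN4 is the main isoform of the sinoatrial node, and HCN2 is also found in working myocardium.

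**Figure D1:**
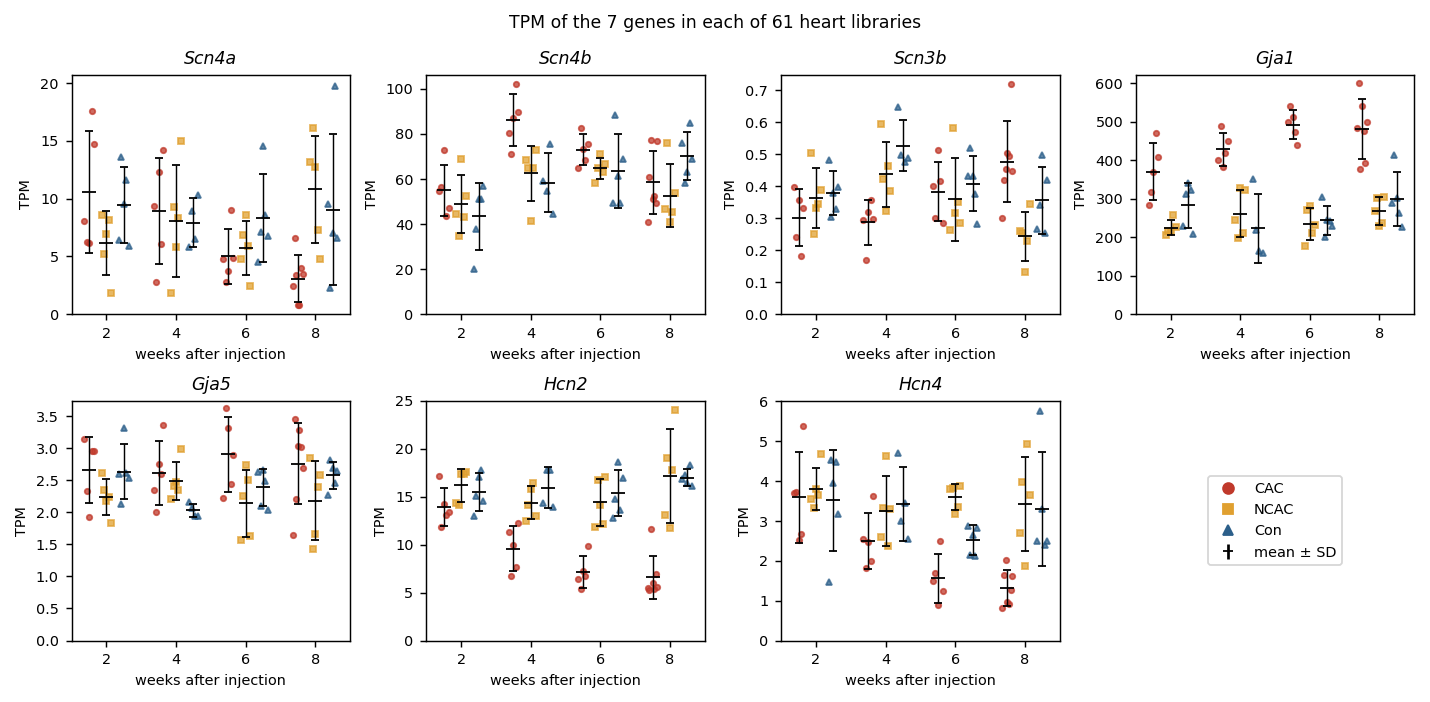
Transcript abundance (TPM, vertical axes starting at 0) of the 7 genes in each library by week after injection, with circles for CAC, squares for NCAC and triangles for Con, and with the mean and SD of each group in black. Hcn2 in CAC hearts lay below every library of the other arms from week 4 onwards. Hcn4 had lower group means in CAC from week 4, with libraries that overlapped with at least 1 other arm in each week. Gja1 had higher means in CAC hearts, and Gja5 differed little between the arms.

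The sequences upstream of Hcn2 and Hcn4, which moved in the same direction, and of Gja1, which moved in the opposite direction, are shown so that the 3 can be compared. Each is the 250 bases before the RefSeq transcription start in build GRCm38.p6, read on the gene's own strand, which is the plus strand for all 3 genes. The windows lie at chr10:79716384-79716633 for Hcn2, chr9:58822699-58822948 for Hcn4 and chr10:56377050-56377299 for Gja1. Capitals mark matches to any of the 7 motifs searched.
Hcn2: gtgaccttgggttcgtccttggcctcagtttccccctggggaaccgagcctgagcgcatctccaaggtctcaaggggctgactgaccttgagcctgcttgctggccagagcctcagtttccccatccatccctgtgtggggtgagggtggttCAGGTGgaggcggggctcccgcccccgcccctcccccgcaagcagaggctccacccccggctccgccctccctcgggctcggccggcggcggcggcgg
Hcn4: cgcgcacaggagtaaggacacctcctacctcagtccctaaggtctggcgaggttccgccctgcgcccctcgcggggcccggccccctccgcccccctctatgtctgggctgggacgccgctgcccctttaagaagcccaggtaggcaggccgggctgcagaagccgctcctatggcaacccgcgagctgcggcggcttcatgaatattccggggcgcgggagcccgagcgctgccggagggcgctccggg
Gja1: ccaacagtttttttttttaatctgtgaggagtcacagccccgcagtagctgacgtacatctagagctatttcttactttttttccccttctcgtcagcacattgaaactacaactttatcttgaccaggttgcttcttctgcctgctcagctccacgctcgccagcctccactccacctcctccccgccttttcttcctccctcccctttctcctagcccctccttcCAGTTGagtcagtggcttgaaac
The windows of Hcn2 and Hcn4 had a GC content of 70.4% and 71.2%, that of Gja1 50.0%, and the median of all 32817 promoter windows was 52.4%. The motifs searched on both strands were AGAACA (hexamer of glucocorticoid receptor sites, held by 16.1% of all windows of this length), TTCNNNGAA (STAT, 7.01%), GTAAACA (FOXO, 3.16%), TATTTA (MEF2 core, 12.7%), GGTGTGA (TBX5, 3.33%), TTAAGTG (NKX2-5, 2.10%) and CANNTG (E box, 66.2%). An E box stood 98 bases upstream of the start of Hcn2 and another 23 bases upstream of Gja1, and the window of Hcn4 held none of the 7 motifs. Among the members not printed, Scn4b had 1 glucocorticoid receptor hexamer, 146 bases upstream, and neither Scn4a nor Gja5 held any of the motifs. A match is a description of letters, not a binding site.

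Values are TPM, transcript abundance corrected for transcript length and scaled to the same total in every library. Mitochondrially encoded transcripts took 52.2 ± 1.92% of TPM in CAC hearts at week 8 (SD, n = 7) and 58.3 ± 3.28% in Con hearts (n = 5), so that the remaining genes share a larger total in CAC. Differences are given as the difference of group means of log2(TPM + 1) with its standard error from limma. They are followed where it matters by the same difference after rescaling each library by the median of its ratios to a reference over 10432 genes. The median difference of all 12541 tested genes between CAC and Con at week 8 was 0.19 as deposited and 0.01 after rescaling, and at week 6 it was 0.21 and below 0.01. Calls (Benjamini-Hochberg adjusted p below 0.05) between CAC and Con at week 8 covered 60.8% of tested genes, with 6368 higher (50.8%) and 1251 lower (9.98%) as deposited, and after rescaling 51.8%, with 3391 higher (27.0%) and 3106 lower (24.8%). The left-out Con library had 89.1% of its TPM in mitochondrial transcripts, against 49.3 to 61.1% in the others. CAC replicate 3 of week 8 stood apart from the other 6 libraries of its group, with the acute-phase gene Serpina3n at 54.9 TPM against 1665 to 2841, and values without it are given where they change a result.

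Ventricular markers were abundant in every library, with the myosin light chain gene Myl2 between 2798 and 6102 TPM over the 61 libraries. Of 7 atrial markers, Sln, Myl7, Myl4 and Bmp10 never exceeded 1.51 TPM, whereas Nppa, the gene of atrial natriuretic peptide, ranged from 20.4 to 2192 TPM. At week 8 the 7 together summed to 73.8 to 1536 TPM in CAC and 99.5 to 256 TPM in Con, nearly all of it Nppa. Of 7 nodal and conduction markers, Isl1 and Shox2 never exceeded 0.430 TPM, Cpne5 never reached 1 TPM, and Tbx3 lay between 2.47 and 6.01 TPM. Most of the sum of that list was from Cntn2, Vsnl1 and Igfbp5. Of 9 skeletal muscle markers, Myh1, Myh2, Myh4, Actn3 and Atp2a1 never reached 1 TPM, and the myosins among them stayed at or below 0.316 TPM. Tnnt3, Tnni2, Mylpf and Pvalb did reach 1 TPM. At week 8 the 9 summed to 2.27 to 4.17 TPM in CAC and 1.61 to 2.27 TPM in Con. Scn4a is the sodium channel gene best known from skeletal muscle, and a part of such muscle in its values was not tested. All 7 macrophage markers were higher in CAC than in Con at week 8, with a summed level of 215 to 524 TPM against 103 to 144, and the 8 ventricular markers summed to 22226 to 32270 TPM against 31233 to 38919. The 7 fibroblast markers summed to 1307 to 2086 TPM against 1101 to 1348, with 4 called as higher. The 7 smooth muscle and pericyte markers summed to 310.0 to 460.7 TPM against 442.7 to 550.0, with 2 called as lower. Of all tested genes 50.8% were called as higher and 9.98% as lower as deposited, and 27.0% and 24.8% after rescaling. Whether the marker sums reflect shifts in cell make-up, and the part of such shifts in the results below, was not tested. In bulk tissue fewer cells of a type and less RNA per cell cannot be told apart.

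Of the 7 members, 6 reached 1 TPM in at least 5 libraries and entered the test across all genes. Scn3b did not. Between CAC and Con the number of the 6 that were called was 0 at week 2 (1.84% of all tested genes were called), 2 at week 4 (15.0%), 3 at week 6 (55.8%) and 4 at week 8 (60.8%). Gja1 was the called gene that was higher, at weeks 4, 6 and 8. Hcn2 was lower from week 4, Hcn4 from week 6 and Scn4a at week 8. Between CAC and NCAC, Gja1 was called higher at week 2 (0.59% of tested genes called), Gja1 higher and Hcn2 lower at week 4 (16.5%), Gja1 and Gja5 higher and Hcn2 and Hcn4 lower at week 6 (54.5%), and Gja1 higher and Scn4a, Hcn2 and Hcn4 lower at week 8 (66.1%). Between NCAC and Con none of the 6 was called in any week, where limma called 0, 0, 0 and 89 genes in all (0.0%, 0.0%, 0.0% and 0.71%), against 1003, 103, 213 and 1942 genes at an unadjusted p below 0.05. Both sets of CAC differences use the same CAC hearts. Leaving out 1 library moved some of these counts of genes called by over 1.5 times. Against Con at week 2, 231 genes became 94, 69 or 70 without CAC replicate 2, 3 or 4, and 31, 126 or 348 without Con replicate 1, 2 or 5. Against Con at week 4, 1883 genes became 893 without CAC replicate 2 and 1031 or 1165 without Con replicate 4 or 5. Against NCAC at week 2, 74 genes became 132, 7, 10 or 36 without CAC replicate 1, 3, 4 or 5, and 24, 25 or 15 without NCAC replicate 1, 3 or 5, and at week 4, 2074 became 1108 without CAC replicate 2. Between NCAC and Con at week 8 the 89 genes became 17 to 395 without any 1 library except Con replicate 4. These calls touch the values that led to the choice of the genes and are no support for them. Where all libraries of 2 groups lie apart below, the share of all tested genes that do so was not counted.

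**Figure D2:**
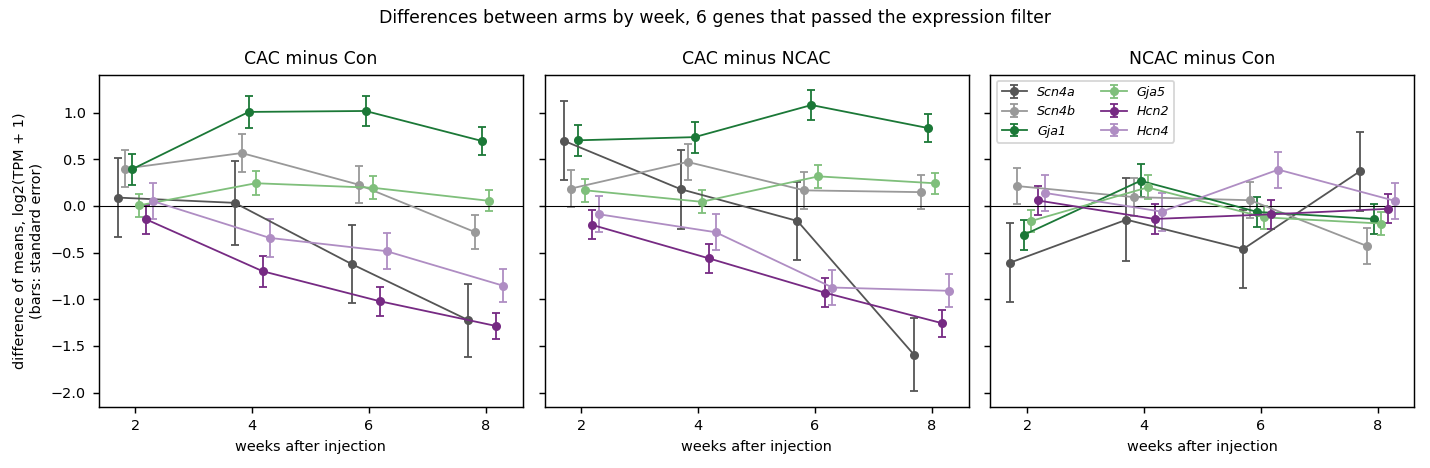
Difference between arms in mean log2(TPM + 1) of the 6 members that passed the expression filter (vertical axis), by week after injection, with bars for the standard error. Against both comparison arms the line of Hcn2 descends from week 2 to week 8, to -1.29 against Con and -1.26 against NCAC, while Gja1 stays above 0 and the NCAC minus Con panel scatters around 0.

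Scn4a (ENSMUSG00000001027.7, chr11:106318592-106353288 on the minus strand, mm10) encodes the pore of the Nav1.4 channel of skeletal muscle. It varied most of the 7 genes between libraries of a group, with a coefficient of variation of up to 72.5%. At week 8 Con hearts had 9.54, 2.29, 7.01, 19.8 and 6.56 TPM and NCAC hearts 13.2, 16.1, 12.7, 7.32 and 4.76 TPM. CAC hearts ranged from 0.779 to 6.63 TPM with a median of 3.37. The lowest CAC libraries were below every Con and NCAC library, but the highest overlapped with both arms. The difference was -1.22 ± 0.39 against Con (-1.37 after rescaling) and -1.60 ± 0.39 against NCAC (-1.79 after rescaling). Without Con replicate 4, the library at 19.8 TPM, the difference from Con was -0.90 and was no longer called. In the CAC arm itself the level went from 10.6 ± 5.29 TPM at week 2 (n = 5) to 8.94 at week 4, 5.03 at week 6 and 3.07 ± 2.02 TPM at week 8 (n = 7). Within the order of the 12 group means, which ran from 10.8 TPM (NCAC, week 8) to 3.07 TPM (CAC, week 8), no neighbouring groups differed by more than their SDs.

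Of the other alpha subunit genes, Scn7a encodes a sodium-sensing channel outside the voltage-gated pattern. At week 8 it was at 5.66 ± 0.854 TPM in Con and 12.4 ± 2.47 in CAC (0.99 ± 0.13, limma adjusted p = 1.08e-08). Scn10a, a gene of sensory neurons that is also linked to cardiac conduction, was lower in CAC at week 8. It had 0.855 ± 0.359 against 1.90 ± 0.525 TPM (-0.66 ± 0.14, limma adjusted p = 9.24e-05). It lies around 1 TPM, where the pseudocount compresses differences.

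Scn4b (chr9:45138395-45154152, plus strand) encodes the beta 4 subunit. Its highest group was CAC at week 4, with 80.6, 71.3, 86.9, 102 and 89.8 TPM, while Con hearts of that week had 58.9, 54.8, 75.7 and 44.4 TPM. By week 8 CAC hearts ranged from 40.9 to 77.5 TPM with a median of 52.4, and Con hearts had 75.8, 58.0, 63.2, 84.9 and 69.1 TPM. The order of the CAC and Con means was thus reversed between the 2 weeks, and in both weeks the ranges overlapped. The difference between CAC and Con was 0.40 ± 0.20 at week 2, 0.57 ± 0.21 at week 4, 0.23 ± 0.20 at week 6 and -0.28 ± 0.18 at week 8. None of these was called, but that of week 4 was called without Con replicate 4 (0.70). After rescaling, the week 6 value was -0.011 and that of week 8 was -0.49 ± 0.19, which was called. Against NCAC the week 8 difference was 0.15 ± 0.18 as deposited and -0.11 after rescaling, so its sign rested on the scaling. In Con hearts Scn4b was higher at week 8 than at week 2 (0.75 ± 0.20, called, where 1.36% of tested genes were), although without Con replicate 1 of week 2, the library at 20.0 TPM, that difference was 0.51. That call was also lost without Con replicate 2 of week 2 (0.73) or without Con replicate 1 (0.72), 3 (0.79), 4 (0.68) or 5 (0.76) of week 8.

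Scn2b, the beta 2 subunit gene, was at 1.03 ± 0.524 TPM in CAC and 0.395 ± 0.101 in Con at week 8. It was not tested, since 4 libraries reached 1 TPM.

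Scn3b (chr9:40269217-40291618, plus strand), the gene of the beta 3 subunit, was present at trace level. Its maximum over the 61 libraries was 0.720 TPM, and its values come from a fit without the expression filter. At week 4 CAC hearts had 0.294, 0.171, 0.318, 0.358 and 0.297 TPM and Con hearts 0.647, 0.499, 0.474 and 0.487, with no overlap (-0.25 ± 0.07). At week 8 the order was turned, with 0.299 to 0.720 TPM in CAC (median 0.453), 0.266, 0.341, 0.497, 0.254 and 0.421 in Con, and 0.260, 0.255, 0.132, 0.228 and 0.346 in NCAC. These ranges overlapped, and the difference was 0.12 ± 0.06 from Con and 0.25 ± 0.06 from NCAC. At such levels a few reads set the value, and read depth is not given with TPM.

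Gja1 (chr10:56377330-56402513, plus strand), the gene of connexin 43, was the most abundant of the 7. The 4 CAC groups had the highest 4 of its 12 group means, from 371 ± 73.4 TPM at week 2 to 493 ± 38.0 TPM at week 6, and the other 8 groups lay between 223 and 299 TPM. At week 4 CAC hearts had 401, 490, 382, 419 and 450 TPM and Con hearts 351, 219, 164 and 159, and at week 6 CAC hearts had 498, 540, 512, 473 and 440 TPM and Con hearts 304, 201, 244, 243 and 230. In both weeks every CAC library was above every Con library. At week 8 CAC ranged from 377 to 599 TPM (median 483), Con hearts had 289, 414, 303, 264 and 226, and NCAC hearts 268, 301, 228, 237 and 305. CAC was clear of NCAC and overlapped with Con through Con replicate 2 alone.

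Between CAC and Con the Gja1 difference was 0.39 ± 0.17 at week 2, 1.01 ± 0.17 at week 4, 1.02 ± 0.16 at week 6 and 0.70 ± 0.15 at week 8. After rescaling these were 0.28, 0.90, 0.77 and 0.48. Already at week 2 the CAC hearts, at 285, 319, 370, 470 and 409 TPM, lay above all NCAC hearts, at 207, 215, 216, 257 and 226 TPM (0.70 ± 0.16). The call of that week 2 difference was lost when any of 7 of the 10 libraries was left out, namely CAC replicates 3, 4 and 5 and NCAC replicates 1, 2, 3 and 5, with the Gja1 difference then between 0.61 and 0.71. Con hearts of week 2, at 229, 312, 340, 321 and 210 TPM, overlapped with CAC. Within the CAC arm, Gja1 was 0.38 ± 0.15 higher at week 8 than at week 2 and 0.22 higher after rescaling, where it was not called. That call was also lost without CAC replicate 1 (0.29) or 2 (0.33) of week 2 and without CAC replicate 2 (0.33) or 4 (0.35) of week 8.

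Gja5 (chr3:96904693-97077416, plus strand), the gene of connexin 40, stayed between 1.43 and 3.63 TPM in all 61 libraries, and its group means spanned 2.03 to 2.90 TPM, the narrowest relative range of the 7. At week 8 it ranged from 1.64 to 3.45 TPM in CAC (median 3.03), and was 2.27, 2.82, 2.69, 2.46 and 2.64 TPM in Con and 2.85, 1.43, 1.66, 2.39 and 2.58 TPM in NCAC. The 3 arms overlapped. The difference from Con was 0.055 ± 0.11 as deposited and -0.098 after rescaling. Against NCAC it was 0.24 ± 0.11 and not called, but it was called without CAC replicate 1 (0.33) or 3 (0.28) or NCAC replicate 1 (0.32), 4 (0.27) or 5 (0.29). Its call against NCAC at week 6 (0.32 ± 0.12) was absent after rescaling (0.16) and without CAC replicate 2 (0.25) or 3 (0.28) or NCAC replicate 1 (0.25) or 5 (0.26). Exons of Gja5 overlap with exons of Gpr89 on the opposite strand, a gene at up to 8.01 TPM here. Whether the counting used strand is not given in the sources used here, so reads of the pair may be mixed. Gja5 is also a gene of arterial endothelium, whose 8 markers summed to 45.4 to 66.0 TPM in CAC and 42.4 to 54.9 TPM in Con at week 8. The part of that in the Gja5 values was not tested.

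Of 16 connexin genes considered, 5 were tested. Gja4, the connexin 37 gene of arterial endothelium, rose from 11.4 ± 1.19 TPM in Con to 16.4 ± 3.19 in CAC at week 8 (0.48 ± 0.11, limma adjusted p = 0.000257). Gjc1, the gene of connexin 45, rose from 6.54 ± 0.847 to 9.90 ± 2.74 TPM (0.50 ± 0.13, limma adjusted p = 0.000811). Gja3, the gene of connexin 46, was at 9.23 ± 2.07 TPM in Con and 9.01 ± 1.31 in CAC (-0.02 ± 0.12, limma adjusted p = 0.889). Gja1 made up 92.4 ± 1.28% of the summed TPM of these 16 genes in CAC and 90.6 ± 1.42% in Con hearts, ranges that overlapped.

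Hcn2 (chr10:79716634-79736108, plus strand) showed the steadiest course. In the CAC arm its libraries had 17.1, 11.8, 14.3, 13.1 and 13.4 TPM at week 2, 11.3, 6.69, 9.94, 7.70 and 12.3 at week 4, and 6.40, 5.38, 7.21, 6.76 and 9.86 at week 6. At week 8 they ranged from 5.25 to 11.6 TPM with a median of 5.59. Con hearts had 13.0, 15.1, 17.1, 17.8 and 14.5 TPM at week 2 and 16.9, 17.3, 16.4, 18.3 and 16.1 at week 8. Every CAC library was below every Con and NCAC library of its week at weeks 4, 6 and 8. NCAC was at 12.5 to 16.5, 11.8 to 17.1 and 11.7 to 24.0 TPM in these weeks. The share of all tested genes that lay apart in this way was not counted. Called in these comparisons were 15.0% to 66.1% of tested genes. At week 2 the arms overlapped.

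The difference of Hcn2 between CAC and Con was -0.14 ± 0.15 at week 2, -0.70 ± 0.17 at week 4, -1.02 ± 0.15 at week 6 and -1.29 ± 0.14 at week 8. Rescaling gave -0.25, -0.80, -1.24 and -1.47. Against NCAC the values from week 2 to week 8 were -0.20, -0.56, -0.93 and -1.26. Without CAC replicate 2 of week 4, the lowest library of its group, the Hcn2 difference from NCAC in that week was -0.45 and was not called. CAC replicate 3 of week 8 was the library at 11.6 TPM, against 5.25 to 6.89 in the other 6, and without it the week 8 differences of Hcn2 were -1.42 from Con and -1.39 from NCAC. Con hearts did not show this course, with a change from week 2 to week 8 of 0.13 ± 0.15, and that in NCAC was 0.04 ± 0.15. In the order of the 12 group means, the 8 control and NCAC groups ran from 17.1 to 14.4 TPM with no neighbours apart by more than their SDs. CAC followed at 13.97 ± 1.98 TPM in week 2, 9.59 ± 2.36 in week 4, 7.12 ± 1.67 in week 6 and 6.59 ± 2.28 in week 8, and the steps after weeks 2 and 4 were larger than the SDs of both groups.

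Hcn4 (chr9:58823412-58863175, plus strand) was at lower levels than Hcn2. Against Con it was called lower from week 6, and Hcn2 from week 4. In the CAC arm the group means of both genes were already lower at week 4 than at week 2. The weeks of the calls therefore do not show a later fall of Hcn4. CAC hearts had 3.69, 3.73, 2.53, 2.68 and 5.39 TPM at week 2, 2.55, 1.82, 2.47, 2.01 and 3.62 at week 4 and 1.49, 1.70, 0.882, 2.50 and 1.24 at week 6. At week 8 they ranged from 0.810 to 2.03 TPM (median 1.27), against 2.51, 5.77, 3.29, 2.39 and 2.51 TPM in Con and 2.70, 3.99, 1.87, 4.92 and 3.65 in NCAC. All CAC libraries were below all Con libraries at week 8, and the NCAC library at 1.87 TPM was inside the CAC range. At week 6 CAC was below all NCAC hearts (3.80, 3.82, 3.16, 3.36 and 3.87 TPM) and overlapped with Con (2.87, 2.14, 2.66, 2.12 and 2.82 TPM). NCAC and Con themselves did not overlap in that week, with NCAC 0.39 ± 0.19 above Con, which was not called.

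The Hcn4 difference between CAC and Con was 0.05 ± 0.19 at week 2, -0.34 ± 0.20 at week 4, -0.48 ± 0.19 at week 6 and -0.86 ± 0.18 at week 8, and after rescaling -0.03, -0.42, -0.64 and -0.96. The week 6 call was lost without CAC replicate 3 (-0.38) or 5 (-0.44) or Con replicate 1 (-0.45), 3 (-0.47) or 5 (-0.45). Against NCAC, Hcn4 was -0.87 ± 0.19 at week 6 and -0.91 ± 0.18 at week 8. Without CAC replicate 3 of week 8 the Hcn4 differences of that week were -0.92 from Con and -0.98 from NCAC. At the low level of Hcn4 the pseudocount compresses differences, so their size cannot be set directly beside that of Hcn2. On TPM the week 8 means in CAC and Con were 1.32 and 3.29 for Hcn4, and 6.59 and 17.0 for Hcn2.

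**Figure D3:**
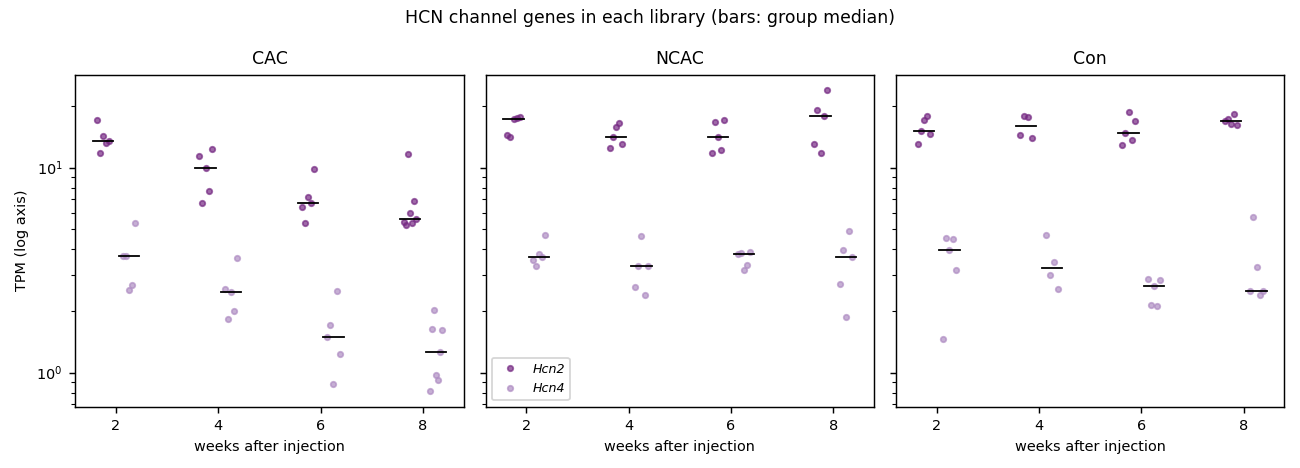
TPM of Hcn2 and Hcn4 in each library on a log axis, by week after injection in 1 panel per arm, with a bar at the group median. In CAC hearts both genes step down, to medians of 5.59 and 1.27 TPM at week 8, while in NCAC and Con hearts Hcn2 stays above 10 TPM.

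The ratio of Hcn2 to Hcn4 within a library, which does not depend on the scaling of the library, was 5.22 ± 1.35 in CAC hearts at week 8 (n = 7), 5.76 ± 1.82 in Con and 5.22 ± 1.21 in NCAC (n = 5 each). Its range of 3.20 to 6.72 in CAC overlapped with 3.00 to 7.68 in Con. The nodal markers Isl1 and Shox2 were near 0 throughout, while the 7 nodal and conduction markers summed to 32.1 to 54.7 TPM in CAC and 35.1 to 39.3 TPM in Con. Cpne5 never reached 1 TPM and Tbx3 stayed at or below 6.01 TPM. Most of the sum was thus from Cntn2, Vsnl1 and Igfbp5 together, and it does not follow Isl1 and Shox2.

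**Figure D4:**
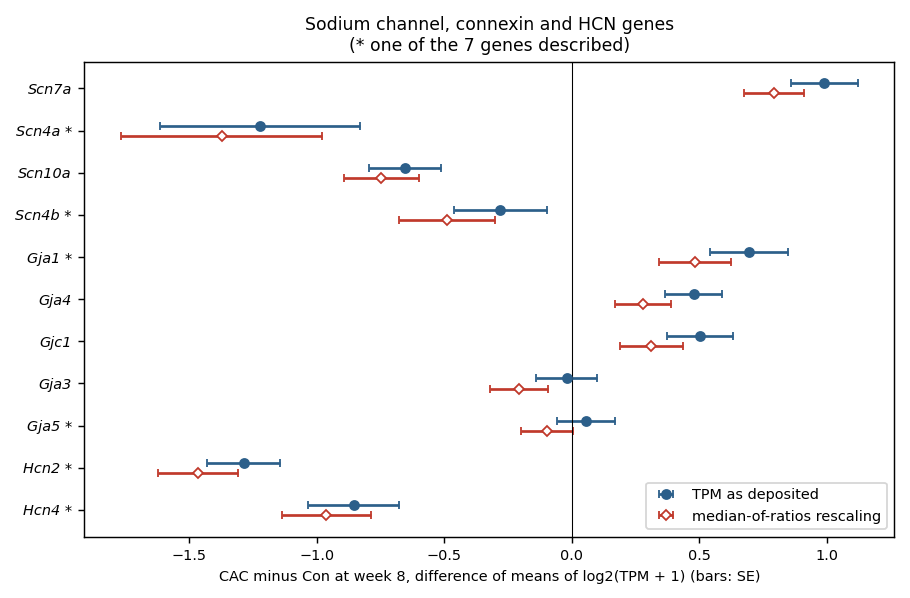
Difference between CAC and Con at week 8 in mean log2(TPM + 1) with its standard error (horizontal axis) for 11 sodium channel, connexin and HCN genes that passed the filter, with filled circles for TPM as deposited and open diamonds after rescaling. Rescaling moves nearly all points to lower values by 0.1 to 0.2, which turns the sign of Gja5 and leaves Hcn2 at -1.47 and Hcn4 at -0.96.

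Of 24 other sodium channel, connexin and HCN genes considered, 5 were tested between CAC and Con at week 8, and 3 were higher, 1 (Scn10a) lower and 1 (Gja3) not called. Their median difference was 0.48, against 0.19 over all genes, and 0.28 against 0.01 after rescaling with the same counts. Against NCAC the counts were 3 higher and 1 lower, and Gja3 was lower after rescaling (-0.26). Of all tested genes, 60.8% and 66.1% were called in these comparisons. The other 19 did not pass the filter. They were Scn1a, Scn2a1, Scn3a, Scn8a, Scn9a, Scn11a, Scn2b, Gja6, Gja10, Gjb1, Gjb2, Gjb5, Gjb6, Gjc3, Gjd2, Gjd3, Gjd4, Gje1 and Hcn3, and 18 of them never reached 1 TPM. Scn3a came closest, at 0.771 ± 0.238 TPM in CAC and 0.286 ± 0.0804 in Con at week 8.

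Among 57 tested genes of 4 partner lists, 21 were called as higher in the CAC hearts of week 8 than in Con hearts and 13 as lower, with a median difference of 0.13. After rescaling 6 were called as higher and 18 as lower with a median of -0.066, so the balance of directions rested on the scaling. Of all tested genes 60.8% were called (50.8% higher, 9.98% lower), and 51.8% after rescaling (27.0% higher, 24.8% lower). Of 14 tested sodium channel partners, 3 rose and 4 fell, and after rescaling 1 rose and 4 fell (60.8% and 51.8% of all tested genes were called). The caveolar gene Cav3 (96.7 ± 16.4 against 68.2 ± 7.41 TPM, 0.49 ± 0.08, limma adjusted p = 2.49e-06) rose. Trpm4, a cation channel gene linked to conduction block, fell from 10.1 ± 1.75 to 7.70 ± 0.746 TPM (-0.35 ± 0.08, limma adjusted p = 0.000241). Sntb2 rose by 0.35 ± 0.10 (limma adjusted p = 0.00209) and was not called after rescaling (0.17, adjusted p = 0.0887). Camk2d, the gene of the main cardiac isoform of calmodulin kinase II, fell from 16.5 ± 1.77 to 13.6 ± 1.47 TPM (-0.26 ± 0.08, limma adjusted p = 0.00557).

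Of the 17 intercalated disc genes, which encode the junctions that hold Gja1 gap junctions between myocytes, 7 rose and 4 fell, and after rescaling 1 rose and 6 fell, against the same shares of 60.8% and 51.8% over all genes. The desmosomal plakophilin gene Pkp2 was at 66.3 ± 6.40 TPM in CAC and 49.7 ± 6.20 in Con (0.41 ± 0.08, limma adjusted p = 2.97e-05, 0.20 and adjusted p = 0.0240 after rescaling). The N-cadherin gene Cdh2 was 0.40 ± 0.11 higher (limma adjusted p = 0.00145) and missed the threshold after rescaling (0.19, adjusted p = 0.0873). Ldb3, a Z-disc gene, was at 212 ± 17.7 against 264 ± 31.1 TPM (-0.31 ± 0.06, limma adjusted p = 2.29e-05), and the catenin gene Ctnna1 was lower by a similar step (-0.23 ± 0.07, limma adjusted p = 0.00369). All 7 CAC libraries were below the Con median for Ldb3 and Ctnna1.

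Of 18 tested transcription factors of the conduction system and the nodes, 9 rose and 3 fell, and after rescaling 3 rose and 5 fell, again against 60.8% and 51.8% of all genes. Irx3, a factor of the fast conduction system that is known to act on connexin genes, rose from 8.78 ± 4.71 to 19.0 ± 5.64 TPM (1.07 ± 0.24, limma adjusted p = 0.000187, 0.88 after rescaling), with all 7 CAC libraries above the Con median. Gata6 rose from 22.9 ± 2.51 to 35.6 ± 6.77 TPM (0.59 ± 0.11, limma adjusted p = 5.14e-06). Hopx, a homeodomain-only factor of cardiomyocytes, was at 105 ± 58.8 TPM against 197 ± 66.2 (-1.02 ± 0.25, limma adjusted p = 0.000523), although 2 of 7 CAC libraries were above the Con median. Gata4 fell from 44.9 ± 7.43 to 34.7 ± 3.13 TPM (-0.35 ± 0.10, limma adjusted p = 0.00144).

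Of 8 tested calcium channel subunit genes 2 rose and 2 fell, and after rescaling 1 rose and 3 fell, where 60.8% and 51.8% of all genes were called. Cacna1d, the pore gene of the Cav1.3 channel of pacemaker cells, rose from 0.557 ± 0.106 to 1.43 ± 0.433 TPM (0.62 ± 0.09, limma adjusted p = 2.12e-08). Cacna2d1 fell from 31.5 ± 3.86 to 23.4 ± 2.00 TPM (-0.41 ± 0.09, limma adjusted p = 4.89e-05). Cacna2d2 was at 0.525 ± 0.190 TPM in CAC and 0.810 ± 0.116 in Con (-0.25 ± 0.10, limma adjusted p = 0.0286). Cacna1d and Cacna2d2 lie around or below 1 TPM, where the pseudocount compresses differences. Cacnb1 was 0.16 ± 0.07 higher (limma adjusted p = 0.0419), a difference that was 0.00071 after rescaling (adjusted p = 0.994).

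Changes of the gap between CAC and Con from week to week are given from the same fit as a description. The genes were chosen with earlier results of these hearts in view, so the calls below are no support for them. From week 2 to week 8 the gap changed by -1.14 ± 0.21 for Hcn2 and by -0.91 ± 0.26 for Hcn4. Both were called, where 26.5% of all tested genes were. The change for Scn4a was -1.31 ± 0.58 and was not called, except without Con replicate 2 of week 8, where Scn4a was at -1.65. For Gja1 it was 0.30 ± 0.23. The change of -0.68 ± 0.27 for Scn4b was not called as deposited and was called after rescaling (-0.78), and also without any 1 of 8 libraries, with Scn4b values from -0.73 to -0.80. These were CAC replicates 4 and 5 and Con replicates 3, 4 and 5 of week 2, and CAC replicates 3 and 7 and Con replicate 2 of week 8. Between weeks 4 and 8 Scn4b changed by -0.85 ± 0.28 and was called, where 7.69% of tested genes were, but the call was lost without any of 16 of the 21 libraries of its 4 groups, with Scn4b values from -0.73 to -0.88. Over the same weeks Hcn2 changed by -0.59 and was not called. It was called without CAC replicate 2 of week 4 or without CAC replicate 3 of week 8, the latter with -0.72. Between weeks 6 and 8 none of the 6 was called, where 0.152% of tested genes were. Within the CAC arm from week 2 to week 8, Scn4a changed by -1.55 ± 0.39, Hcn2 by -1.01 ± 0.14 and Hcn4 by -0.98 ± 0.18, all called, where 52.7% of tested genes were. In the NCAC arm none was called, where 0.0% of tested genes were.

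The genes whose 12 group means ran most like those of each member are given as a description, since groups share their arms and weeks. For Hcn2 they were Lrrc14b, Acot7 and Kcnip2 (Pearson r = 0.98 for each over 12 groups, and 0.97, 0.98 and 0.97 without CAC at week 8). Kcnip2, which encodes the KChIP2 subunit of the transient outward potassium channel, went from 88.9 TPM in Con to 26.1 in CAC at week 8. For Hcn4 they were Spryd7, Mtrf1l and Rtn2 (r = 0.97 each), and Hcn2 and Hcn4 themselves had r = 0.92, or 0.86 without CAC at week 8. For Gja1 they were the hypoxia factor gene Hif1a (r = 0.99), Prkar1a (0.98) and Tmem136 (0.98), and Gja1 against Hcn2 gave -0.88. Scn4a was most like Cenpa, Gnb3 and Lrrc4b (r = 0.94, 0.93 and 0.92), which fell to 0.85, 0.83 and 0.80 without CAC at week 8. For Scn4b they were Bcl2l13, Retsat and Ikzf2 (r = 0.85, 0.85 and 0.83, and 0.85, 0.90 and 0.93 without CAC at week 8). For Gja5 they were Ddx55, Shb and Zfp626 (r = 0.90, 0.89 and 0.89, and 0.92, 0.90 and 0.92 without CAC at week 8).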

How the data were processed

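RNA of hearts was extracted with Trizol and sequenced on a NovaSeq instrument from stranded mRNA libraries, per the labels' protocols. Reads were mapped to mm10, per the submitters' processing notes. The aligner, counting tool, annotation and read depth are not given in the sources used here. In the table, which the authors deposited in TPM, 62 libraries had values for 47643 symbols, of which 24270 were 0 in every library. Every column matched a sample by its label. Con replicate 2 of week 4 was left out by the rule of the list.

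Values were taken as log2(TPM + 1). The 12541 genes that reached 1 TPM in 5 or more libraries were fitted with limma 3.58.1 (limma-trend, R 4.3.3) over 61 libraries with a mean for each of 12 groups and no covariate, adjusted by Benjamini-Hochberg within a comparison, with a threshold of 0.05. The script recovered most of the larger changes in simulated data with independent noise and few changed genes. That setting lacks the wide shift of the real libraries, so it does not test the calls made under such a shift. Arms were compared within a week, CAC minus Con between weeks, and week 8 with week 2 within an arm. P-values set a difference of group means against the spread between libraries within groups, estimated over all 12 groups. Figures and summaries used Python 3.11.15, pandas 2.3.3, numpy 2.4.6 and matplotlib 3.10.9.

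The 7 genes and all lists were chosen with earlier results of these data known. Family, partner and marker lists were written from general knowledge, not by how genes moved. Some genes of these lists are not reported here, and counts over the lists leave them out. Named were the 7 genes, the measured genes of the families, of each partner list the up to 4 genes with the smallest p between CAC and Con at week 8 or all called where 5 or fewer were, and per member the 3 tested genes with the highest correlation of group means, leaving out predicted genes. Positions come from GENCODE release 21 for mouse, matched by symbol (45134 matched), whose use by the authors is not known, and promoter sequences from RefSeq, whose table held 6 of the 7 members. Alternatives were a pseudocount of 0.1, no filter, a filter of 5 TPM, median-of-ratios rescaling (factors 0.850 to 1.22), a replicate block, the compared groups alone, the left-out library kept and each library left out.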

Additional observations from a re-analysis of the deposited data

Results flagged for a closer look

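A library was set apart from its group when its gap to the nearest other library exceeded Dixon's 95% critical value, which chance does in about 1 in 20 groups. Of 84 checks of a gene in a group, 5 passed. Hcn2 in CAC replicate 3 of week 8 was at 11.6 TPM, with the next library at 6.89 TPM. Hcn4 in Con replicate 2 of week 8 was at 5.77 TPM, with the next at 3.29. Scn4b in NCAC replicate 3 of week 4 was low, at 41.5 TPM with the next at 64.8. Scn3b was high in Con replicate 1 of week 4 (0.647 TPM, next 0.499) and in NCAC replicate 2 of week 6 (0.582 TPM, next 0.350).

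Of 18 changes of the CAC minus Con difference between weeks, 3 passed limma's adjusted threshold, over genes chosen with earlier results known. They were Hcn2 (-1.14) and Hcn4 (-0.91) between weeks 2 and 8, and Scn4b (-0.85) between weeks 4 and 8.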

How the results depend on the processing

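With libraries left out in turn, the week 8 differences ranged for Scn4a from -1.56 to -0.90 against Con and -1.83 to -1.43 against NCAC, for Scn4b from -0.35 to -0.20 and 0.069 to 0.29, for Gja1 from 0.60 to 0.82 and 0.78 to 0.89, for Gja5 from 0.011 to 0.14 and 0.15 to 0.33, for Hcn2 from -1.42 to -1.25 and -1.39 to -1.13, and for Hcn4 from -0.93 to -0.68 and -1.05 to -0.79. Hcn2, Hcn4 and Gja1 at week 8 kept their direction and call under every alternative that tested them, against both arms, but a filter of 5 TPM left out Hcn4 and Gja5. The alternatives refit the same libraries, so the kept calls are no support for genes chosen with these values in view. Median-of-ratios rescaling called Scn4b lower than Con at week 8 (-0.49), called its change from week 2 to week 8 in CAC minus Con (-0.78), and turned the sign of Scn4b against NCAC at weeks 6 (-0.054) and 8 (-0.11), against Con at week 6 (-0.011) and in CAC from week 2 to 8 (-0.083). It also turned Scn4a against Con at weeks 2 (-0.015) and 4 (-0.059), Gja5 against Con at weeks 2 (-0.078) and 8 (-0.098), against NCAC at week 4 (-0.022), in CAC from week 2 to 8 (-0.084) and in the week 8 minus week 2 difference (-0.020), Hcn4 against Con at week 2 (-0.032), and Hcn2 in NCAC against Con at week 8 (0.018). None of the differences that turned was called as deposited. With the left-out library kept, NCAC minus Con at week 4 became 0.41 for Scn4a, 0.38 for Hcn2 and 0.34 for Hcn4, Hcn4 in CAC minus Con at week 4 became 0.059, and Hcn2 in CAC minus Con at week 4 was -0.18 and not called.

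The number of genes called at week 8 was, with that library kept, 4374 (CAC against Con), 5237 (CAC against NCAC) and 1 (NCAC against Con). For NCAC against Con it was 711 after rescaling and 7 in a fit of the compared groups alone, and it ranged from 17 to 395 with libraries left out. Genes called between CAC and Con were at week 2 50 after rescaling, 0 with the library kept and 31 in the compared groups alone, and with it kept 7424 at week 4 and 3315 at week 6. For CAC against NCAC they were 2 with it kept and 129 in the compared groups alone at week 2, and with it kept 621 at week 4 and 3274 at week 6. NCAC against Con at week 2 gave 3 after rescaling. Without a filter, other family genes called were 8 against Con and 9 against NCAC, because more were tested. Partner genes called were 9 against Con and 9 against NCAC with the library kept, and 24 against NCAC after rescaling. The cause of these other shifts was not tested.

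Replicate numbers did not pair the libraries, as correlations of same-numbered deviations ran from -0.276 to 0.412 and in no comparison were all above 0.1. A replicate block changed the call of 2 results, both for Scn4b, whose CAC minus Con difference changed by -0.72 from week 2 to week 8 (called) and by -0.88 from week 4 to week 8 (not called). Single left-out libraries turned the sign of 27 differences, none of which was called as deposited. Against Con these were Scn4a at weeks 2 (-0.11 to 0.23) and 4 (-0.16 to 0.34), Gja5 at week 2 (-0.046 to 0.084), Hcn4 at week 2 (-0.15 to 0.14) and Gja3 at week 8 (-0.066 to 0.094) for CAC, and Gja1 at week 6 (-0.13 to 0.031), Hcn2 at week 8 (-0.16 to 0.086), Hcn4 at weeks 2 (-0.064 to 0.23), 4 (-0.17 to 0.068) and 8 (-0.062 to 0.23), Scn4a at week 4 (-0.40 to 0.22) and Scn4b at weeks 2 (-0.034 to 0.33), 4 (-0.026 to 0.23) and 6 (-0.019 to 0.19) for NCAC. For CAC against NCAC they were Gja3 at week 8 (-0.074 to 0.015), Gja5 at week 4 (-0.025 to 0.11) and Scn4a at week 4 (-0.18 to 0.49). From week 2 to week 8 they were in Con Gja1 (-0.045 to 0.17), Gja5 (-0.071 to 0.045), Hcn4 (-0.27 to 0.019) and Scn4a (-0.56 to 0.10), in NCAC Gja5 (-0.12 to 0.048), Hcn2 (-0.085 to 0.16) and Scn4b (-0.029 to 0.24), in CAC Gja5 (-0.047 to 0.11) and Scn4b (-0.0042 to 0.18), and Gja5 in CAC minus Con (-0.029 to 0.13).
Read depth is not given, so the precision of genes near 1 TPM, among them Scn3b and Scn10a, is unknown.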
